A study of Mus musculus with 60 samples.

Results

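Expression of 9 genes of contraction in slow (type I) muscle fibres was followed in triceps muscle of C57BL/6JN mice, mouse by mouse. They are Tnnt1, Tnni1, Tnnc1, Myl2, Myl3, Atp2a2, Casq2, Myoz2 and Csrp3, chosen by symbol from a deposited table of 54352 genes, in which each of the 9 had 1 row. All 9 passed the filter on low counts, which left 4410 genes to test in triceps. Expression had been measured by 3′ digital gene expression RNA sequencing, which counts short reads near the 3′ end of transcripts, in 60 libraries of subcutaneous fat, visceral fat and triceps from 20 mice. The triceps libraries fell into 4 groups of 5 mice: chow sedentary, chow trained, high-fat diet (HFD) sedentary and HFD trained. Chow held 10% and HFD 60% of energy as fat, both eaten freely for 6 weeks. Trained mice had a running wheel for weeks 3 to 6, which they used voluntarily, and sedentary mice did not run. All mice were fasted for 6 hours before the tissues were taken, with the wheels locked for 24 hours, and the labels give an age of 12 weeks. Mice are numbered 1 to 5 within a group as in the labels, and the numbers do not link mice of different groups.

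Slow fibres contract slowly, tire little and rely on oxidative metabolism, whereas fast fibres contract and relax quickly. Each type builds its sarcomere and its calcium store from its own members of the same protein families, so that most slow genes have a fast partner gene. Several of the slow genes are also used by the ventricles of the heart. Mouse triceps is a limb muscle made mostly of fast fibres. In whole tissue, fewer slow fibres and less slow RNA per fibre cannot be told apart.

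The members fall into 4 roles. Tnnt1, Tnni1 and Tnnc1 encode the slow forms of troponin T, I and C, the calcium switch of the thin filament, and the C form is shared with heart. Myl2 and Myl3 encode the regulatory and essential light chains of slow skeletal and ventricular myosin. Atp2a2 encodes SERCA2, the calcium pump of the sarcoplasmic reticulum in slow fibres and heart, also present in other cells, and Casq2 encodes calsequestrin 2, the calcium buffer inside that store. Myoz2 (calsarcin 1) binds calcineurin at the Z-disc, and Csrp3 (muscle LIM protein) is a Z-disc protein that responds to stretch. In GENCODE on GRCm38 all 9 are protein-coding, on 6 chromosomes. Tnnt1 lies at chr7:4504570-4516382, Tnni1 at chr1:135779434-135810989 and Tnnc1 at chr14:31208312-31211729. Myl2 spans chr5:122100951-122113472, Atp2a2 chr5:122453513-122502225 and Myl3 chr9:110741861-110769798. Casq2 occupies chr3:102086415-102146514, Myoz2 chr3:123006206-123035015 and Csrp3 chr7:48830398-48848033.

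Because the levels of 8 of these genes varied together from mouse to mouse while Casq2 followed them least, promoters of 4 of the former and of Casq2 are shown. RefSeq (GRCm38.p6) gave 11 entries for 8 of the members, each reaching from 250 bases before to 50 bases after a transcript start; the 250 bases before the start are printed, 5′ to 3′ on the gene's strand. Capitals mark matches on either strand to 4 motifs known from muscle or core promoters: TATAAA, the core promoter box that positions the start, CATTCC, the element bound by TEAD factors, CAGCTG, an E-box bound by myogenic factors, and the site of MEF2.
Tnnt1: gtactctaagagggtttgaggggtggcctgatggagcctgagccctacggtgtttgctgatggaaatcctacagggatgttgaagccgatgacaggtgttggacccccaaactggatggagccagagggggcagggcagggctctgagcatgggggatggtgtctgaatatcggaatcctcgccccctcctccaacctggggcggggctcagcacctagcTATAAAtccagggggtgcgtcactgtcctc
Tnnc1: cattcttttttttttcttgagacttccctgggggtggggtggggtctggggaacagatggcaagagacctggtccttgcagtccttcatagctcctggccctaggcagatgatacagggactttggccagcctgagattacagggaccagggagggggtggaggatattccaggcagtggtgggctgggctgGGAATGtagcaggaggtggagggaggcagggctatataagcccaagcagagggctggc
Myl3: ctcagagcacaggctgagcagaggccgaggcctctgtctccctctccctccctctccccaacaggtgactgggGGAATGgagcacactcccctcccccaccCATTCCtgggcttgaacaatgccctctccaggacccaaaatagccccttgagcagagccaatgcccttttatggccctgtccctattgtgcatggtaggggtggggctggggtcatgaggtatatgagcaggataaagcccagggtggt
Myoz2: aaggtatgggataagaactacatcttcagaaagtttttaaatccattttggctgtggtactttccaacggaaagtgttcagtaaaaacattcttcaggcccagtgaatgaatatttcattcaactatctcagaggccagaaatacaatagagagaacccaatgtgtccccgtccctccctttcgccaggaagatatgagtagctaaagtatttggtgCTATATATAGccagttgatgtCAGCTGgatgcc
Casq2: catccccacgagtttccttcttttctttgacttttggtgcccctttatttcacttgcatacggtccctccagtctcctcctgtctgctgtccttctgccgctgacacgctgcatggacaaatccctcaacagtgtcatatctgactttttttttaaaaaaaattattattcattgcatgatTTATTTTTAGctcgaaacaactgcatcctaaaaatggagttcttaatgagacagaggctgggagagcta
These regions are, in order, chr7:4515976-4516225 (minus strand), chr14:31208062-31208311 (plus strand), chr9:110763428-110763677 (plus strand), chr3:123034988-123035237 (minus strand) and chr3:102086165-102086414 (plus strand). CATTCC was found in 2 of the 11 entries, those of Tnnc1 and Myl3, against 14.7% of 32851 promoters of the same length. CAGCTG was found in 5 of 11 (Tnni1 and Myl2 at both of their starts, and Myoz2), against 16.3% of all promoters. The Tnni1 windows overlap and hold the same CAGCTG, so that site is counted in 2 entries. Both Myl2 starts lie upstream of the Myl2 gene as GENCODE places it. TATAAA was found in 2 entries (Tnnt1 and a start of Myl2), against 13.6%. The MEF2 site was found in 2 entries (Casq2 and Myoz2), against 3.19%. The Casq2 window thus holds the MEF2 letters without the others, Myoz2 holds them beside CAGCTG, and neither Csrp3 entry holds any of the 4. No motif of the 4 is common to all members, and a match is a run of letters and not a measured binding site. Any link between these motifs and the levels was not tested.

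Triceps libraries held 651030 to 744581 estimated counts, so that a count of 0 allows up to 3 counts, or 4.03 to 4.61 CPM (the counts of a gene per 1000000 counts of its library); this limit covers counting error only. The 10 skeletal muscle markers gave 43341 to 93057 reads in each library, so the markers of the labelled tissue were present. The library codes of the 20 libraries in the file header follow each other without a break, and no label names a run. They were divided into blocks of 12 successive codes, with boundaries set where reads of other organs start and stop. This gave 3 runs, called runs 1 to 3 here. Run 1 held 5 chow libraries and run 3 held 3 HFD libraries, so diet and run overlap, whereas run 2 held 12 libraries of all 4 groups. Reads of 7 intestinal genes numbered 147 to 186 in each run 1 library and at most 3 in each other library, and reads of 7 brain genes numbered 111 to 153 in run 3 against 23 to 61 elsewhere. Because the boundaries were set from reads of this kind, these counts describe the runs and do not test them. The summed reads of the 9 slow genes ranged from 44 to 735 in run 1, 31 to 579 in run 2 and 87 to 232 in run 3. Nothing in the labels says that the replicates differ in more than the mouse. The mice of each group were split between runs, so p values measure a spread that mixes mouse and run.

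The slow troponins varied from mouse to mouse far more than between groups. Tnni1, which inhibits the thin filament at rest, had levels of 13.1, 20.6, 83.0, 18.4 and 2.81 CPM in chow sedentary mice 1 to 5 and 17.8, 1.38, 33.6, 10.8 and 45.6 CPM in chow trained mice. On HFD, Tnni1 was at 0, 0, 0, 35.8 and 17.0 CPM in sedentary mice and 12.6, 38.7, 71.1, 1.36 and 10.7 CPM in trained mice. HFD sedentary mice 1 to 3 thus had no Tnni1 read, while mouse 4 of that group was above 3 of the 5 HFD trained mice, and all groups overlapped. Tnnc1, the calcium-binding subunit, had levels of 23.3, 43.9, 148, 23.0 and 1.40 CPM in chow sedentary and 35.6, 4.13, 72.9, 27.1 and 119 CPM in chow trained mice. In HFD sedentary mice Tnnc1 stood at 3.03, 4.26, 1.39, 66.1 and 41.2 CPM, and in HFD trained mice at 11.2, 80.3, 84.4, 0 and 8.06 CPM. The same mice were low for both genes: HFD sedentary 1 to 3, chow sedentary 5, chow trained 2 and HFD trained 4. Tnnt1, which ties the troponin complex to tropomyosin, ranged from 0 to 49.8 CPM, with 3 libraries at 0. Against the 3-count floor of the library with the lowest level, the highest library of Tnni1 was at least 18.2-fold higher and that of Tnnc1 at least 36.2-fold higher. Group means of Tnnt1 were 21.4 ± 17.4 CPM (SD, n = 5) in chow sedentary, 17.6 ± 18.1 in HFD trained, 16.3 ± 14.6 in chow trained and 8.05 ± 11.6 in HFD sedentary mice, and neighbours in this order differed by less than their SDs. The HFD sedentary mean was the lowest of the 4 for 8 of the 9 members, Casq2 being the exception.

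**Figure D1:**
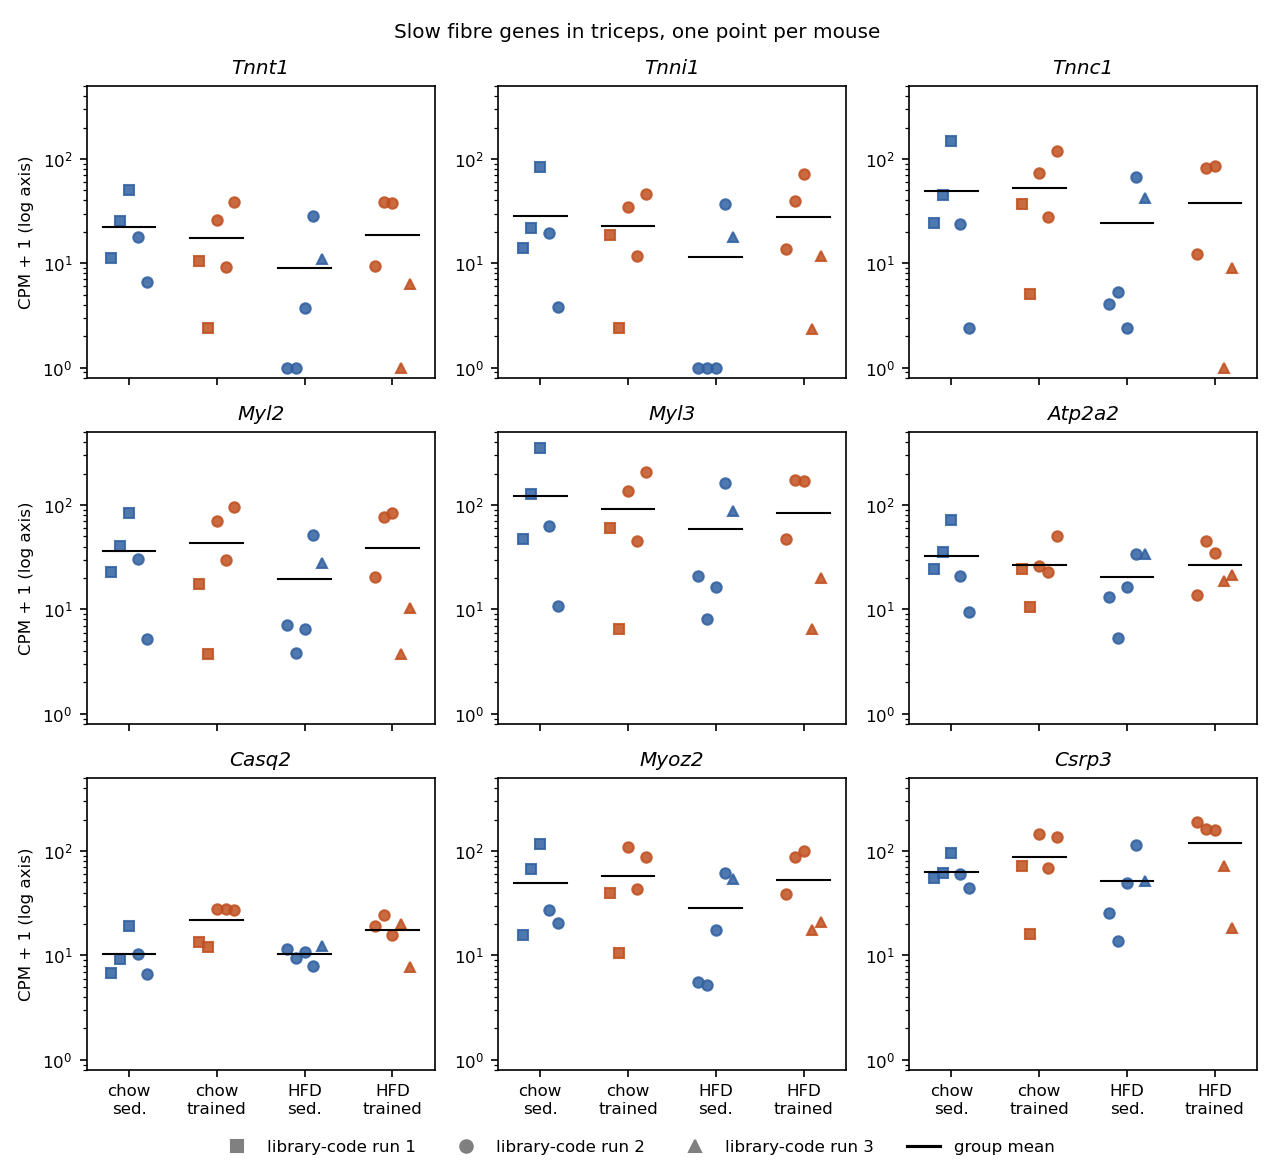
CPM + 1 on a log axis (y) in the 4 triceps groups (x) for each of the 9 slow genes; each point is 1 mouse, its shape gives the library-code run, blue is sedentary, orange is trained and the line is the group mean. Groups overlap in every panel; the points are closest together for Casq2, whose lowest and highest libraries are 5.62 and 27.1 CPM.

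Myosin light chains and Myoz2 had levels that followed the troponins closely, with rho of 0.89 to 0.96 to each of them over the 20 libraries. Myl3, the essential light chain, ranged from 5.45 to 354 CPM, a 65.0-fold span with no library at 0. Its group means were 120 ± 138 CPM (SD, n = 5) in chow sedentary, 89.9 ± 80.0 in chow trained, 57.7 ± 65.3 in HFD sedentary and 83.0 ± 82.8 in HFD trained mice, each SD close to or above its mean. Myl2, the regulatory light chain, ranged from 2.72 to 95.4 CPM, with group means between 18.5 ± 20.6 CPM (HFD sedentary) and 42.6 ± 38.8 CPM (chow trained). Myoz2 ranged from 4.26 to 115 CPM, with group means between 27.7 ± 27.0 (HFD sedentary) and 57.0 ± 39.7 CPM (chow trained). All these ranges overlapped between groups, and the mouse with the highest Myl3 and Myoz2 was chow sedentary mouse 3. Atp2a2, the calcium pump, was less variable, from 4.26 to 70.6 CPM, with means from 19.5 ± 12.9 (HFD sedentary) to 31.3 ± 23.8 CPM (chow sedentary).

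Csrp3, the stretch-responsive LIM protein, followed the troponins less closely (rho 0.67 to 0.74) and was highest in HFD trained mouse 1. It had levels of 53.9, 60.4, 95.5, 59.9 and 43.5 CPM in chow sedentary mice and 71.3, 15.1, 146, 67.7 and 134 CPM in chow trained mice. On HFD it was at 24.3, 12.8, 48.5, 114 and 51.1 CPM in sedentary mice and at 191, 161, 157, 70.8 and 17.5 CPM in trained mice. HFD trained mice 1 to 3 were above every HFD sedentary mouse, but HFD trained mouse 5 lay below 4 of them. Csrp3 means were 119 ± 72.4 CPM (SD, n = 5) in HFD trained, 86.8 ± 53.5 in chow trained, 62.6 ± 19.6 in chow sedentary and 50.2 ± 39.4 in HFD sedentary mice, and neighbours in this order differed by less than the larger of their SDs.

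Casq2 was the member with the least spread between mice. Casq2 levels were 5.83, 8.24, 18.0, 9.22 and 5.62 CPM in chow sedentary mice and 12.3, 11.0, 26.6, 27.1 and 26.3 CPM in chow trained mice. On HFD they were 10.6, 8.53, 9.70, 6.89 and 11.4 CPM in sedentary mice and 18.2, 23.5, 14.8, 19.1 and 6.72 CPM in trained mice. On each diet 1 mouse broke the separation: sedentary mouse 3 on chow, which was above trained mice 1 and 2, and trained mouse 5 on HFD, which was below all 5 sedentary mice. These levels rest on 4 to 20 reads per library. Means of Casq2 were 20.7 ± 8.22 CPM (SD, n = 5) in chow trained, 16.5 ± 6.28 in HFD trained, 9.42 ± 1.77 in HFD sedentary and 9.38 ± 5.05 in chow sedentary mice. The trained groups differed from each other by less than their SDs, as did the sedentary groups. On each diet the trained and sedentary means differed by more than either SD.

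The spread was set against that of all genes by edgeR's biological coefficient of variation, the SD between mice of a group as a share of the mean after counting error is removed. It was 1.31 for Tnni1, 1.29 for Tnnc1, 1.17 for Tnnt1, 1.10 for Myl3 and 1.03 for Myl2, each at or above the 99.5th percentile of the 4410 tested genes, whose median was 0.152. Myoz2 (0.859), Csrp3 (0.679) and Atp2a2 (0.586) were at the 99.3rd, 99.1st and 98.8th percentiles. Casq2, at 0.226, was at the 90.2nd. On the log2(CPM + 1) scale, differences between mice of the same group made up 95.1% of the sum of squares of Myl3 and 55.0% of that of Casq2, the extremes among the 9.

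Across the 20 triceps libraries the members' levels varied together, Casq2 apart. Spearman's rho over the 28 pairs without Casq2 ran from 0.65 to 0.98 with a median of 0.90, the closest pair being Tnnt1 and Tnni1. Casq2 had rho between 0.27 (Tnnt1) and 0.62 (Csrp3) with the other 8, with a median of 0.36. Casq2 combined 4 to 20 reads per library with the least spread between mice. The part of counting error in its rho was not tested. A first principal component of the 9 genes held 80.0% of their variance. These are descriptions of 20 libraries, and the values share library depth and composition. Summed over the 9 genes, levels ran from 101 to 1017 CPM in chow sedentary, 60.6 to 800 in chow trained, 44.1 to 555 in HFD sedentary and 117 to 750 in HFD trained mice. Chow trained mouse 5 and HFD trained mouse 2 had all 9 members among the 5 highest libraries of each gene, HFD trained mouse 3 had 8 and chow sedentary mouse 3 had 7. Every group but HFD sedentary thus held a mouse with 7 or more members among the 5 highest. In HFD sedentary the most was 3, in mouse 4. Each group held a mouse with 6 or more members among the 5 lowest libraries.

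The genes outside the list with the most similar pattern were ranked by mean rho to the 9 members over the 20 libraries. Tpm3 (0.84), slow tropomyosin, and Myh7 (0.83), the slow myosin heavy chain, led with Fxyd6 (0.83), followed by Myh2 (0.77), the myosin heavy chain of IIa fibres. Idh2 (0.74), Mybpc1 (0.73), Homer2 (0.73), Ankrd2 (0.72), Myl12a (0.70) and Exoc1 (0.70) completed the 10 nearest. Of the 4401 tested genes outside the list, 3 had a mean rho of 0.8 or more, and 90% lay between -0.45 and 0.48. Mybpc2, the fast myosin-binding protein C, was at the other end with -0.75, a gene chosen here after its values were seen. Myh2 had rho of 0.70 with Casq2, where Tnnt1 had 0.27.

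**Figure D2:**
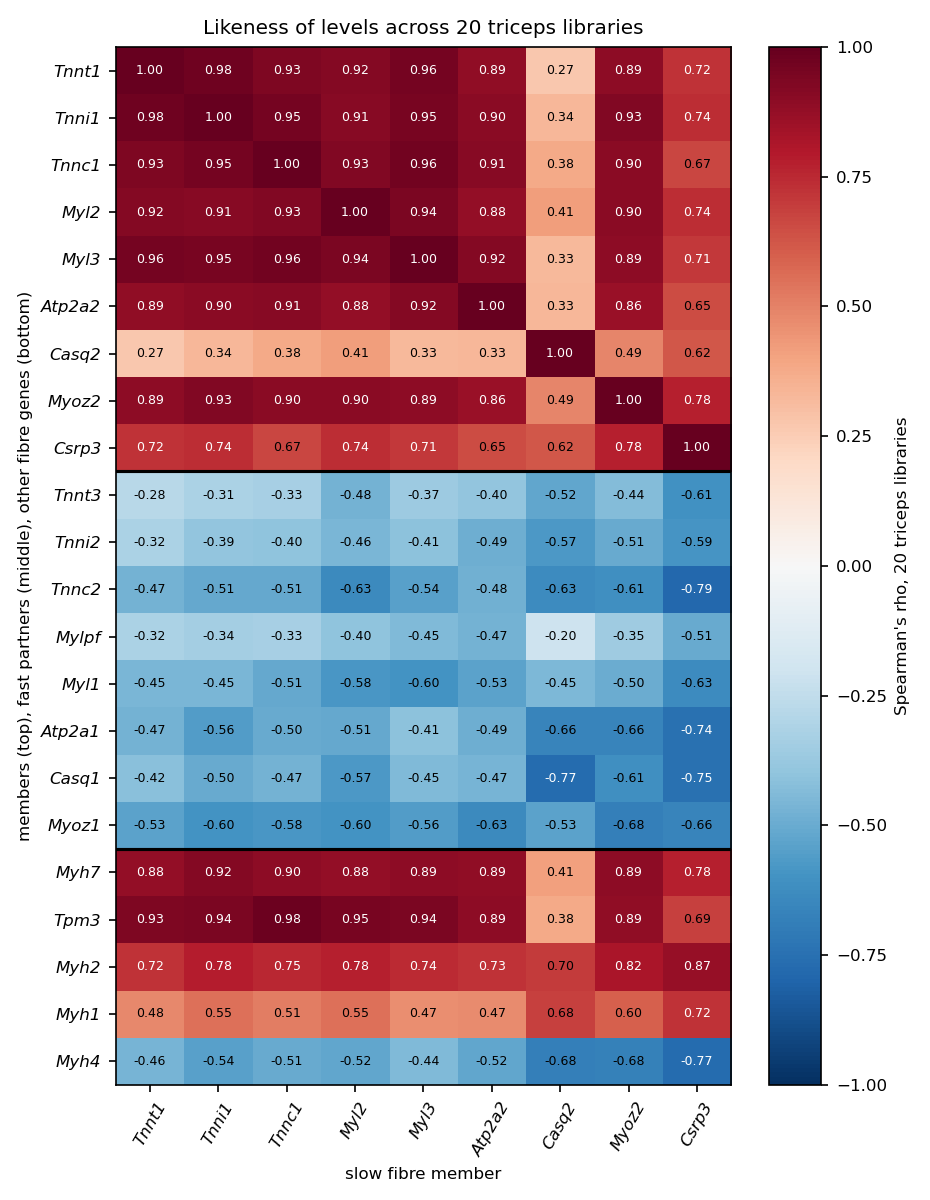
Spearman's rho across 20 triceps libraries between each slow gene (x) and, from the top, the slow genes themselves, their 8 fast partners and 5 further fibre genes (y); red is positive and blue negative. The Casq2 column is paler than the other 8 in the top block (0.27 to 0.62), and the fast partners are blue against every member.

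Slow forms were a small part of each slow and fast pair. Of 8 pairs, the slow share of the reads of both genes had a median over the 20 libraries of 0.0625% for Tnnt1 beside Tnnt3, 0.155% for Tnni1 beside Tnni2 and 0.114% for Tnnc1 beside Tnnc2. It was 0.116% for Myl2 beside Mylpf, 0.233% for Myl3 beside Myl1, 0.393% for Atp2a2 beside Atp2a1, 0.545% for Casq2 beside Casq1 and 4.69% for Myoz2 beside Myoz1. These are shares of 3′ reads, not corrected for how well each gene is counted. Each share was compared between 5 and 5 mice in 4 contrasts by a two-sided exact permutation test, which can reach p = 0.00794 at the smallest. None of the 32 comparisons passed after Benjamini-Hochberg adjustment. Over 32 tests, a lone comparison at the smallest possible p of 0.00794 could not have passed. The adjusted result therefore cannot decide whether the share of a single pair differed. The Casq2 share was 0.404 ± 0.275% (SD, n = 5) in chow sedentary and 1.20 ± 0.583% in chow trained mice (exact p = 0.0317, adjusted p = 0.508). On HFD the Casq2 share was 0.376 ± 0.128% in sedentary and 1.15 ± 0.583% in trained mice (exact p = 0.0317, adjusted p = 0.508). The other 30 comparisons had exact p values from 0.167 upwards.

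The effect of voluntary running was tested within each diet with edgeR, with adjustment over all 4410 genes and a call below 0.05. None of the 9 members was called for training on chow, where 0.748% of all tested genes were called, and none was called on HFD, where 5.35% were. The genes called split into 20 higher and 13 lower on chow and 147 higher and 89 lower on HFD, and on total counts into 9 and 37 and into 78 and 351. Neither limma's voom fit nor DESeq2 called a member, although DESeq2's own filter gave 7 members on chow and 4 on HFD no adjusted p. At an unadjusted p below 0.05 there was 1 member on chow (Casq2), against 10.8% of all genes, and there were 2 on HFD (Casq2 and Csrp3), against 19.0%. On chow the members' median log2 fold change was 0.22, with 5 of 9 above 0, and the median of all tested genes was -0.01. On HFD the median was 1.07, with 9 of 9 above 0, again against -0.01 for all genes. Members other than Casq2 varied together across the libraries (median rho 0.90), so the 9 signs are not separate results. In none of the 9 genes were the trained and sedentary mice fully apart on either diet; over all genes, 0.703% were fully higher and 3.67% fully lower in trained mice on chow, and 1.09% and 5.85% on HFD.

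Casq2 had the narrowest interval among the members. On chow its log2 fold change was 1.25 (SE 0.34, 95% interval 0.56 to 1.94, edgeR adjusted p = 0.0655), and 5 of 5 trained mice were above the sedentary median. On HFD it was 0.98 (SE 0.36, 0.26 to 1.70, edgeR adjusted p = 0.103), with 4 of 5 above. With no filter on low counts the chow value was 1.23 and was called (edgeR adjusted p = 0.0498). Its call depended on single libraries: without chow sedentary mouse 3 the change on chow was 1.62 (edgeR adjusted p = 0.0201), and without chow trained mouse 2 it was 1.41 (adjusted p = 0.0312). Without HFD trained mouse 5 the change on HFD was 1.20 (adjusted p = 0.0293). Within run 2, the one with all 4 groups, it was 1.99 on chow (edgeR adjusted p = 0.0288) and 1.32 on HFD (adjusted p = 0.0193). These values compare 3 trained with 2 sedentary mice on chow and 3 with 4 on HFD, and both mice that broke the separation lie outside run 2. With the run as a factor over all 20 libraries Casq2 was not called, at 1.11 on chow (edgeR adjusted p = 0.116) and 1.04 on HFD (adjusted p = 0.0809). Averaged over both diets, a contrast added after the values had been seen, Casq2 was 1.11 higher in trained mice on the log2 scale (SE 0.25, edgeR adjusted p = 0.0018), where 5.80% of all genes were called higher. The other 8 members were not called in that contrast, where 8.82% of all genes were called in either direction, at 0.20 (Myl3) to 1.01 (Csrp3, adjusted p = 0.192). Trained mice also had a larger share of reads from mitochondrial genes, 32.3 to 41.6% against 27.2 to 31.2% in sedentary mice on chow and 35.8 to 43.2% against 23.9 to 33.6% on HFD. Scaling by total counts in place of TMM, the trimmed mean of M values, lowered all training changes by a median of 0.13 on chow and 0.19 on HFD, and left Casq2 at 1.12 and 0.79; the part of composition in the Casq2 values was not tested.

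**Figure D3:**
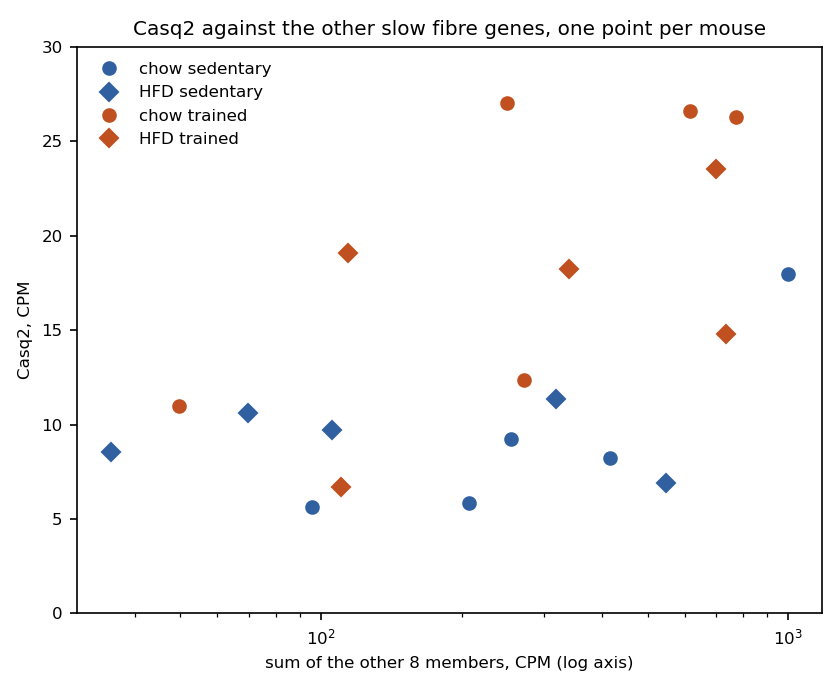
Casq2 level in CPM (y) against the summed CPM of the other 8 slow genes on a log axis (x), 1 point per triceps library; colour gives activity and shape gives diet. Casq2 lies above 20 CPM in 4 libraries, all from trained mice, while the sum of the other genes runs from 35.5 to 999 CPM in sedentary and from 49.5 to 774 CPM in trained mice.

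Csrp3 was at 1.42 on the log2 scale for training on HFD (SE 0.63, interval 0.09 to 2.74, edgeR adjusted p = 0.221) and at 0.61 on chow (SE 0.63, -0.72 to 1.93). For the troponins and light chains the intervals were wide enough to hold changes in both directions. Tnni1 had -0.22 on chow (SE 0.96, -2.26 to 1.82) and 1.47 on HFD (SE 1.10, -0.86 to 3.81). Tnnt1 had -0.28 (SE 0.88) and 1.25 (SE 1.04), Tnnc1 0.22 (SE 0.98) and 0.82 (SE 1.14). Myl2 had 0.38 (SE 0.87) and 1.20 (SE 0.98), and Myl3 had -0.29 (SE 0.95) and 0.70 (SE 1.04). Myoz2 was at 0.37 (SE 0.74) on chow and 1.07 (SE 0.82) on HFD, and Atp2a2 at -0.16 (SE 0.55) and 0.57 (SE 0.59). The signs on chow rested on few mice: within run 2 the chow values of Tnnt1, Tnni1, Myl3 and Atp2a2 were 1.23, 1.68, 2.03 and 1.34, and leaving out single mice took Myl3 from -0.79 to 0.68. Reads of 6 tendon genes, present beside the muscle fibres, ranged from 51 to 116 in chow sedentary and 19 to 77 in chow trained libraries; their part in the chow values was not tested.

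**Figure D4:**
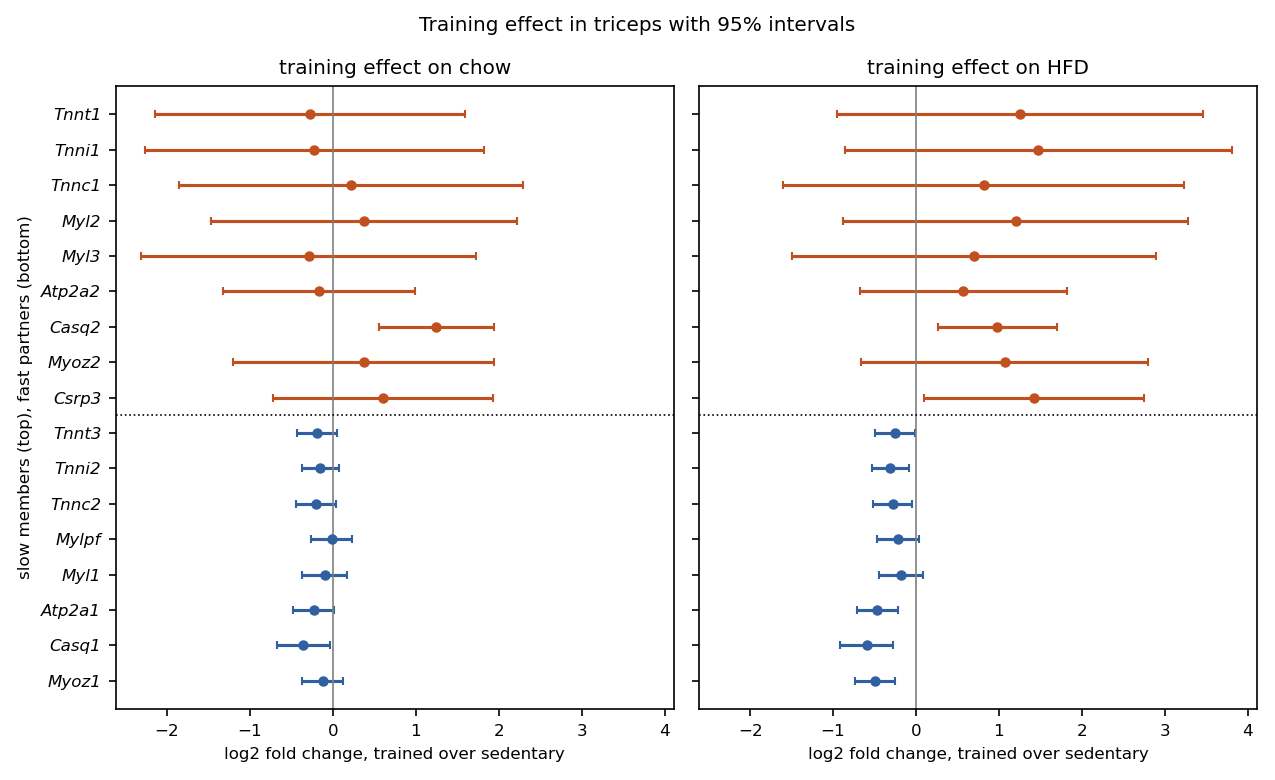
Log2 fold change of trained over sedentary mice (x) with 95% intervals from edgeR, on chow (left) and HFD (right), for the 9 slow genes (orange) and their 8 fast partners (blue). Intervals of the slow genes other than Casq2 span several log2 units, such as -2.26 to 1.82 for Tnni1 on chow, and those of the fast partners are narrow.

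No member was called for diet. No gene of the 4410 was called for HFD against chow in sedentary or in trained mice (0%), and none for the diet by training interaction (0%). Voom and DESeq2 called no gene in these contrasts either, and without the filter on low counts edgeR called 24 genes in sedentary and 2 in trained mice, no member among them. DESeq2's own filter gave 7 members no adjusted p for diet in trained mice. At an unadjusted p below 0.05 the counts over all genes were 4.49% and 6.98% for diet and 5.12% for the interaction, with no member among them. In sedentary mice the members' log2 fold changes on HFD were all below 0 on the TMM scale, with a median of -0.98 against 0.00 for all genes, but that of Casq2 had no steady sign. The values ran from -1.43 for Tnnt1 (SE 1.01, interval -3.56 to 0.70) to -0.07 for Casq2 (SE 0.40), which was at 0.019 with voom and 0.21 within run 2. In trained mice the median was -0.10, with 3 of 9 above 0, from -0.49 (Tnnc1) to 0.45 (Csrp3). The interaction was above 0 for 8 of 9 members, with a median of 0.81, and Casq2 was at -0.27 (SE 0.51). As for training, the signs of the members are not separate results. The contrasts share mice: the 5 HFD sedentary mice, 3 of them low for the troponins, enter both the training contrast on HFD and the diet contrast in sedentary mice. Within run 2 the HFD values in sedentary mice were 0.64 for Tnnc1 and 0.52 for Myl3, opposite to those over all runs.

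Of the 8 fast partners, 3 were called lower in trained mice on HFD and none on chow. Over all tested genes, 5.35% were called for training on HFD and 0.748% on chow, in either direction. Of 16 fast-fibre genes tested, the partners among them, 8 fell and 1 rose with training on HFD, with a median of -0.39. On total counts 12 fell and 1 rose, Myh1 in both cases. The median of the 16 on chow was -0.20, with 2 of 16 above 0 on each diet. None of the 16 was called for the diet by training interaction, for which 0% of all tested genes were called. The calcium pump Atp2a1 fell by 0.47 on the log2 scale (SE 0.12, edgeR adjusted p = 0.0147), Casq1 by 0.59 (adjusted p = 0.0185) and Myoz1 by 0.49 (adjusted p = 0.0091). Pvalb, the cytosolic calcium buffer of fast fibres, fell by 0.85 (edgeR adjusted p = 0.000289) and Myh4, the IIb myosin heavy chain, fell by 0.95 (adjusted p = 0.0157). Actn3 fell by 1.38, Tpm1 by 0.68 and Mybpc2 by 0.60 (edgeR adjusted p = 0.0206, 0.00303 and 0.0307). Myh1, the IIx heavy chain, rose by 1.91 (SE 0.34, edgeR adjusted p = 0.00319). The partners of the troponins and light chains were not called, with values of -0.26 (Tnnt3), -0.31 (Tnni2), -0.28 (Tnnc2), -0.21 (Mylpf) and -0.18 (Myl1). On chow 1 fast gene fell, Pvalb by 0.56 (edgeR adjusted p = 0.0409), though none did on total counts, and none rose, with Myh1 at 1.48 (adjusted p = 0.0517).

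Further slow-fibre genes and regulators gave no call. Of 7 further slow-fibre genes, 3 passed the filter and none was called in any contrast: on HFD, training gave 1.26 for Myh7 (SE 1.14), 0.93 for Tpm3 (SE 0.97) and 1.67 for Ankrd2 (SE 0.68, edgeR adjusted p = 0.187). Of 11 regulators of fibre type, 6 were tested and none was called in any contrast; Ppargc1a, the coactivator PGC-1α, was at 0.37 on HFD (SE 0.20, adjusted p = 0.31). Of 12 genes of calcium release and the Z-disc, 11 were tested, none was called for training on chow (1 fell on total counts), and on HFD 2 rose and 3 fell, against 5.35% of all genes called. Actn2, the Z-disc actinin of all fibres, rose by 1.22 (edgeR adjusted p = 0.0275) and Tcap, the titin cap, by 0.47 (adjusted p = 0.016), and on total counts 1 rose (Actn2) and 5 fell. Cacna1s, the voltage sensor, fell by 0.77 (edgeR adjusted p = 0.0173), the junctophilin Jph2 by 0.97 (adjusted p = 0.0206) and Asph by 0.49 (adjusted p = 0.00818).

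Since several members are also heart genes, 9 heart-restricted genes were read in the same libraries. Nppa and Nppb, the natriuretic peptides, had no read in any of the 20 triceps libraries, and Myh6, the heart's alpha myosin heavy chain, had 4 reads in all, at most 2 in a library. The 9 heart genes summed to 0 to 11 reads per triceps library, and Myl4, an atrial light chain, gave 72 of these reads over the 20 libraries. The next, Tnnt2, gave 8. Myl4 was also read in all 20 subcutaneous fat libraries, at a mean of 22.2 CPM against 5.06 CPM in triceps. Myh6 and Myh7 are close in sequence and the deposited counts are estimates. How reads were divided between these 2 genes was not examined. None of the 9 members followed the heart-restricted sum across the 20 libraries after adjustment. With so few reads, led by a gene also read in fat, this test cannot decide whether members followed heart RNA. The highest was Atp2a2, with Pearson's r = 0.45 (permutation p = 0.0467, adjusted p = 0.42) and Spearman's rho = 0.61 (permutation p = 0.00561, adjusted p = 0.0505). Without the 2 libraries farthest from the median r was 0.50, and within the 12 libraries of run 2 it was 0.51 (permutation p = 0.0895, adjusted p = 0.357).

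The members were also read in the fat libraries of the same mice, without a test. In 5 visceral fat libraries, all chow and all in run 1 of that tissue, the members other than Atp2a2 summed to 542 to 720 reads, and the heart-restricted genes to 245 to 336. In them Myl3 had 193 to 256 reads, Myl2 137 to 206 and Tnnc1 90 to 144, but Tnnt1 and Tnni1 together had 0 to 3. In the other 15 visceral fat libraries those members summed to 0 to 16 reads. In subcutaneous fat, HFD sedentary mouse 4 had 669 such reads, among them 42 of Tnnt1, 68 of Tnni1 and 136 of Tnnc1, beside 32033 skeletal muscle marker reads, while the other 19 libraries had 0 to 30. Chow trained mouse 3 of subcutaneous fat had 49281 muscle marker reads and 22 reads of the members. Summed reads of the light chains and Tnnc1 came with at least 1 read of Tnnt1 or Tnni1 in 18 of 20 triceps libraries. HFD sedentary mice 1 and 2 were the exceptions. Among the 5 visceral libraries, chow sedentary mouse 1 (3 reads) and chow trained mouse 2 (1 read) also had such reads. The mark of 1 read therefore does not separate the tissues, and the source of the triceps reads was not tested. HFD sedentary mouse 3 had no Tnni1 read, and HFD trained mouse 4 had no Tnnt1 read. Light chain and Tnnc1 reads also came with Tnnt1 and Tnni1 in the subcutaneous library of HFD sedentary mouse 4. They came with heart-restricted genes in the 5 visceral libraries, where Myh6 reached 39 and Nppa 17 reads. Across the 19 triceps libraries with at least 10 reads of the 5 genes, Tnnt1 and Tnni1 made up a median of 18.5% of their sum with Tnnc1, Myl2 and Myl3 (range 0 to 35.3%), against a median of 0% (range 0 to 0.645%) in the 5 visceral libraries. The triceps libraries of HFD sedentary mice 1 and 2 were at 0%, with 0 of 19 and 0 of 10 reads, so the ranges overlap. Atp2a2 was present in all fat libraries, at 20 to 60 reads in subcutaneous and 27 to 135 in visceral fat.

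**Figure D5:**
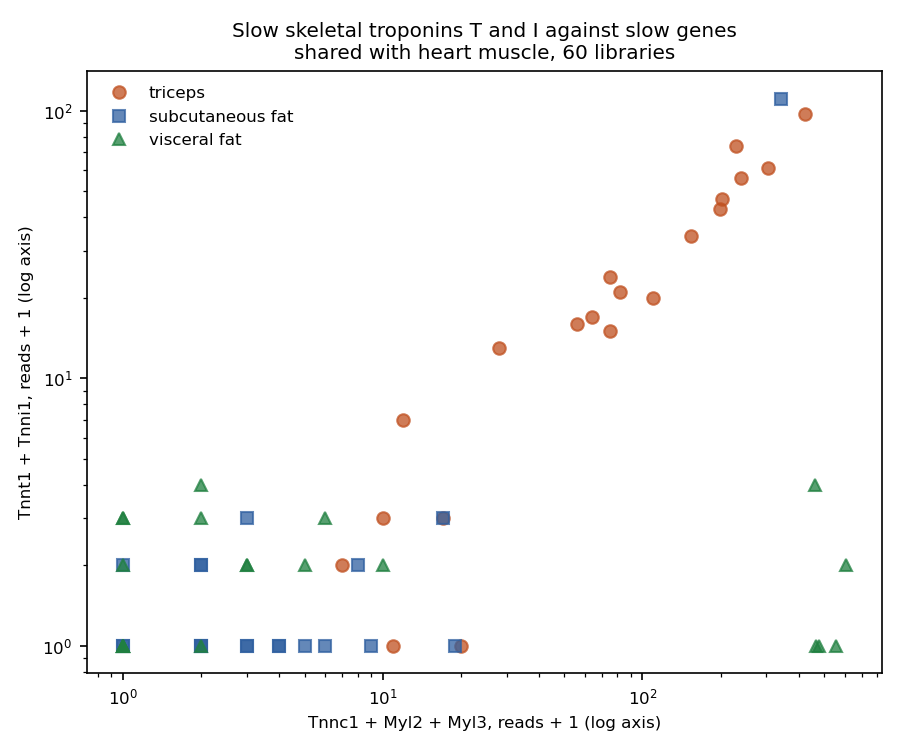
Reads + 1 of Tnnt1 and Tnni1 together (y) against reads + 1 of Tnnc1, Myl2 and Myl3 together (x), both on log axes, for all 60 libraries by tissue. Triceps libraries and 1 subcutaneous library form a diagonal, and 5 visceral libraries lie at the lower right, with 462 to 606 reads of the heart-shared genes and at most 3 of the slow skeletal troponins.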

How the data were processed

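Per the labels' protocols, cDNA of 12 wells was pooled, tagmented and read single-end at 50 bases. Salmon 0.14.2 and the mm10 build are named in the submitters' processing notes. The deposited table holds 1 estimated count per gene and library, whole in every cell as the authors deposited it, and a deposited log2 column per library, the log2 of CPM plus 1, used here only to check the unit. For strand and for PCR duplicates, the handling is not given in the sources used here.

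Triceps was fitted with edgeR 4.0.16 in R 4.3.3 (TMM, filterByExpr by group, robust quasi-likelihood fit over all 20 libraries, two-sided, Benjamini-Hochberg over 4410 genes, call below 0.05). Fold changes are on the TMM scale, on which all-gene medians were near 0. Likeness used log2 CPM with a prior count of 2. Shares used exact permutation tests and correlations used 100000 permutations, both written out with numpy 2.4.6, with ranks from scipy 1.17.1. Runs are blocks of 12 successive library codes in the file header, with boundaries set where reads of other organs start and stop. The fit was tested on simulated data. Within-group pairs of libraries, 120 in all, held no identical pair.

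Alternatives were other scalings, no filter, DESeq2 1.42.0, limma 3.58.1 voom, only both groups of a contrast, the run as a factor, run 2 alone, a replicate block and leaving out each mouse. The text names all 9 members, the 8 fast partners, the called or at most 4 most expressed genes of the other lists, and the 10 genes most like the members. Members, lists and this rule were chosen with earlier results of these data known. The Atp2a2 promoter was not used here.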

Additional observations from a re-analysis of the deposited data

Results flagged for a closer look

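Of 76 groups of 5 libraries tested for a single extreme value, 6 had one. The limit used flags about 1 in 20 groups when values are normal and independent. Here the members vary together and share mice, so the rate by chance is not known. Chow sedentary mouse 3 stood apart from the other 4 mice of its group in 5 of the 6 flagged groups. Its Tnnc1 level was 148 CPM against 1.40 to 43.9 in the others, and its Tnni1 level was 83.0 CPM against 2.81 to 20.6. Its slow share was 1.55% for Myl3 against 0.0302 to 0.432%, 0.634% for Tnnc1 against 0.00531 to 0.175%, and 0.838% for Tnni1 against 0.0243 to 0.180%. In subcutaneous fat, HFD sedentary mouse 4 had 669 reads of the members other than Atp2a2, against 5 to 28 in the other 4 mice of its group. The diet by training interaction was tested for all 9 members, and none differed after adjustment.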

How the results depend on the processing

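The count of members called stayed at 0 for both diet contrasts and the interaction under every alternative run. For training on chow it became 1, Casq2, with no filter (1.23, edgeR adjusted p = 0.0498), within run 2 and averaged over both diets; on HFD it became 1 within run 2 and averaged. Leaving out single mice gave 0 to 1 for both training contrasts.

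Of the members' log2 fold changes under alternatives, 870 kept direction and side of the threshold, 8 newly passed it (Casq2) and 68 turned sign; the cause was not tested. Values that turned were, for HFD in trained mice, 0.018 for Atp2a2 with DESeq2, -0.50 for Tnnt1 and -0.050 for Tnni1 with voom, and 0.11, 0.21, 0.12 and 0.0017 for Myl2, Myl3, Atp2a2 and Myoz2 with the run as a factor. With voom, Casq2 was at 0.019 for HFD in sedentary mice and Tnnc1 at -0.094 for the interaction. Within run 2, training on chow gave 1.23, 1.68, 2.03 and 1.34 for Tnnt1, Tnni1, Myl3 and Atp2a2. Within that run HFD in sedentary mice gave 0.64, 0.52, 0.17 and 0.21 for Tnnc1, Myl3, Atp2a2 and Casq2, and HFD in trained mice gave 0.071 for Myl3. The interaction there was -0.91, -0.066, -0.45 and -0.20 for Tnnc1, Myl2, Myl3 and Atp2a2. Averaged over diets, training gave 0.49, 0.63, 0.20 and 0.21 for Tnnt1, Tnni1, Myl3 and Atp2a2. The difference in Casq2 share for HFD in sedentary mice was 0.00039 percentage points within run 2 and 0.031 as a log2 ratio. The correlation of Atp2a2 with Myh6 and Nppa alone was -0.26.

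Leaving out single mice, training on chow ranged from -0.50 to 0.38 for Atp2a2, -0.10 to 0.96 for Myl2, -0.79 to 0.68 for Myl3, -0.061 to 0.98 for Myoz2, -0.29 to 1.28 for Tnnc1, -0.63 to 0.79 for Tnni1 and -0.79 to 0.30 for Tnnt1. HFD in trained mice ranged from -0.32 to 0.32, -0.67 to 0.31, -0.61 to 0.39, -0.52 to 0.29, -1.05 to 0.019, -0.47 to 0.69 and -0.42 to 0.61 for the same genes. HFD in sedentary mice ranged from -0.20 to 0.30 for Casq2, and the interaction from -0.47 to 1.51 for Tnnc1. The Casq2 share difference ranged from -0.080 to 0.087 for HFD in sedentary and -0.25 to 0.15 in trained mice.

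Genes called for training on chow, 33, became 61 with no filter, 101 with DESeq2 and 95 with only both groups fitted, and 14 to 67 without single mice. On HFD 236 became 429 on total counts and 121 to 293 without single mice. For HFD in sedentary mice 0 became 24 with no filter, and in trained mice 2.

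With the replicate number as a replicate block, 0 members were called in each of the 5 contrasts, and the genes called were 43, 245, 1, 0 and 0. The numbers do not pair the mice: same-numbered libraries correlated at -0.26 to 0.19, and at most 1 of 5 correlated best with its own number. With 4 to 20 reads per library for Casq2 and up to 6 libraries at 3 reads or fewer for a troponin, depth limits these values.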
